A study of Mus musculus with 11 samples.

Results

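Expression of genes for neurotrophin receptors and for the receptor tyrosine kinase Ret was examined in single cells of the stromal vascular fraction, which excludes adipocytes, of mouse perigonadal white adipose tissue (pgWAT). The members were Ngfr, Ptpn5, Ntrk2, Ntrk3, Bdnf, Ntf3, Ret and Gfra1, of which 7 of 8 were matched by symbol among 23507 gene rows, and Bdnf was not analysed here. Ngfr and Ptpn5 had been picked as variable genes, and Ret because of its level, in earlier results of these data. Their sex difference, and their levels in adipose stem cells (ASC) against endothelial cells (EC), are therefore described without a test. All mice carried the Tg(Pdgfrb-eGFP) transgene, in which regulatory sequence of Pdgfrb drives a green fluorescent protein, on a backcrossed C57BL6/J background, and were 12 to 20 weeks old per the study's methods. Males were mice 1, 4 and 8 and females were mouse ids 2, 3, 5 and 6/7, the last being 2 animals whose cells share plates. Cells were sorted by the reporter, by the endothelial surface protein CD31 and, for mouse 2 alone, by the ASC surface protein DPP4. A plate held cells of 1 mouse id, and while mice 1, 4, 3 and 5 shared the sort by the reporter, the DPP4 sorts were of mouse 2 alone, so that its animal and sort cannot be told apart. Smart-seq2 libraries of 3261 cells on 11 plates had a median of 629323 reads per cell.

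Neurotrophins are secreted growth factors best known for the survival and branching of sympathetic and sensory neurons, and white fat is innervated by sympathetic fibres. Bdnf and Ntf5 bind the tyrosine kinase receptor encoded by Ntrk2, and Ntf3 that of Ntrk3, while the p75 receptor encoded by Ngfr binds all of them and pairs with sortilin family proteins to bind their uncleaved precursors. Ret is the signalling receptor for ligands of the Gdnf family and needs a co-receptor of the Gfra family that binds the ligand. Ptpn5 encodes the phosphatase STEP, known from neurons, which removes phosphates from kinases such as those of Mapk3, Fyn and Ptk2b.

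The promoters of Ngfr and Ptpn5 are shown because levels of both varied together among the animals, as described further on. The windows hold the 250 bases before an annotated start, from RefSeq on GRCm38.p6, and 6 of the 8 members had windows in this table. Capitals mark the GC box GGGCGG or its reverse complement CCGCCC. The Ngfr window lay at chr11:95587699-95587948 on the minus strand, and the windows of the inner and outer Ptpn5 starts at chr7:47132599-47132848 and chr7:47133685-47133934, also on the minus strand.
Ngfr: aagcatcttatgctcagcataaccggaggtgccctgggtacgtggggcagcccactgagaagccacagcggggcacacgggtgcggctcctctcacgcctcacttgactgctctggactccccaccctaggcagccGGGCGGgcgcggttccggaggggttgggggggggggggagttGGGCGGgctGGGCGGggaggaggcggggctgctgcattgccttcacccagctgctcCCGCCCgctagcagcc
Ptpn5, inner start: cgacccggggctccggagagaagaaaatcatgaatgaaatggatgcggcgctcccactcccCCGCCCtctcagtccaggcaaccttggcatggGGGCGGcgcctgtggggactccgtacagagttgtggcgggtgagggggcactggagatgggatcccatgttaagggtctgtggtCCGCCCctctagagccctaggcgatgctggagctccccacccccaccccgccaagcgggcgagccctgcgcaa
Ptpn5, outer start: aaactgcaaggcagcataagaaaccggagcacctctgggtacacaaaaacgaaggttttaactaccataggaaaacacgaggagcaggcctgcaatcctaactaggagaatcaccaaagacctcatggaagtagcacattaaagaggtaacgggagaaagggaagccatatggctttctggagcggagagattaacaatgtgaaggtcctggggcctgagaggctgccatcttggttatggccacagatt
The Ngfr window held 4 GC boxes and the inner Ptpn5 window held 3, while the outer Ptpn5 window held 0. A GC box stood in 32.7% of the 32841 windows of this length in the table. GC content was 70.4%, 66.0% and 48.0% in the 3 windows against a median of 52.4% over all windows. The full palindromic oestrogen response element, and the androgen and glucocorticoid response element, searched on both strands, had no match in the 3 windows, and they occurred in 0.0639% and 0.00913% of all windows.

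The cells were grouped by clusters named from marker genes, which gave 2249 ASC-like and 560 EC-like cells besides 137 macrophage-like, 19 epithelial-like, 22 lymphatic EC-like, 60 pericyte-like and 41 vascular smooth muscle cell (VSMC)-like cells. In the ASC-like cells the 4 ASC markers Pdgfra, Col1a1, Dcn and Lum summed to 6764 to 20993 counts scaled to the total of reads in genes (CPM) per mouse. The 4 EC markers summed to 3.54 to 29.1 CPM there and the 4 macrophage markers to 2.64 to 8.32 CPM. Clusters were named by these same markers, so the sums describe the label and are no check of it. Male ASC-like cells lay mostly in other clusters than female ones, with Ret, Sorcs2 and Pcsk6 among the 10 leading genes of the male clusters 7, 9 and 12 and Ngfr among those of the female cluster 4. A clustering without the members and the pathway genes kept 2248 of the 2249 ASC-like cells. Schwann cells and neurons, which express several members, were looked for by their markers. The 8 Schwann cell markers with a row summed to 3.10 to 47.5 CPM per mouse in ASC-like cells, the neuron markers to 9.16 to 49.5 CPM, and Sox10, which defines Schwann cells, had no read in ASC-like cells of mice 4, 8, 3 and 5. Only 6 ASC-like cells, all of mouse 1, had 10 or more Sox10 reads.

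Ngfr (ENSMUSG00000000120, chromosome 11, 95568818 to 95587735, minus strand, GRCm38), the p75 receptor, was higher in female than in male ASC-like cells. Pericyte-like cells held Ngfr reads too, as given further on. In CPM scaled with TMM factors (scaled CPM), the ASC-like cells of males had 5.24 (mouse 1), 0.598 (mouse 4) and 1.014 (mouse 8). The females had 10.97 (mouse 2), 449.7 (mouse 3), 574 (mouse 5) and 182 (mouse 6/7). All females stood above all males, as in 8.37% of all genes tested, and for this picked gene that is a description. Mouse 2 lay closer to the highest male than to any other female. The means were 2.29 ± 2.57 (SD, n = 3) and 304 ± 255 (SD, n = 4) scaled CPM, a 133-fold ratio, and the 3 other females had 16.6 to 52.3 times the level of mouse 2. The cells of mouse 2 were also the ones selected by DPP4, and both of its ASC plates were low.

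Animals differed in both the share of cells with a read and the level per cell. After every cell was thinned to 150000 reads, an Ngfr read was present in 91.9% of ASC-like cells of mouse 3 (95% exact binomial interval 88.5 to 94.5%), 85.6% of mouse 5 (77.3 to 91.7%), 58.5% of mouse 6/7 (52.5 to 64.2%) and 11.9% of mouse 2 (9.68 to 14.5%). In males it was present in 7.79% (4.75 to 11.9%), 1.65% (0.609 to 3.56%) and 1.86% (0.386 to 5.35%) of cells of mice 1, 4 and 8. Intervals cover counting error only, since reads without molecular identifiers are not independent molecules. Without thinning the shares were 98.3%, 95.2%, 79.6% and 21.4% in mice 3, 5, 6/7 and 2 and 2.48 to 11.1% in males. The median ASC-like cell had 345 CPM in mouse 3, 361 CPM in mouse 5 and 5.59 CPM in mouse 6/7, where the 90th percentile was 775 CPM, so that mouse 6/7 held many low cells beside some as high as those of the other animals. Since id 6/7 pools 2 animals, low and high cells may belong to different animals, which was not tested. In mouse 2 the median was 0, the 90th percentile was 3.16 CPM and the highest cell had 982 CPM. In males 1 cell held 90.9% of the Ngfr reads of mouse 4 and 1 cell 79.5% of those of mouse 8. In mouse 1 the 6 Sox10 cells held 9.37% of the Ngfr reads, and without them its unscaled level was 2.94 in place of 3.22 CPM.

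**Figure D1:**
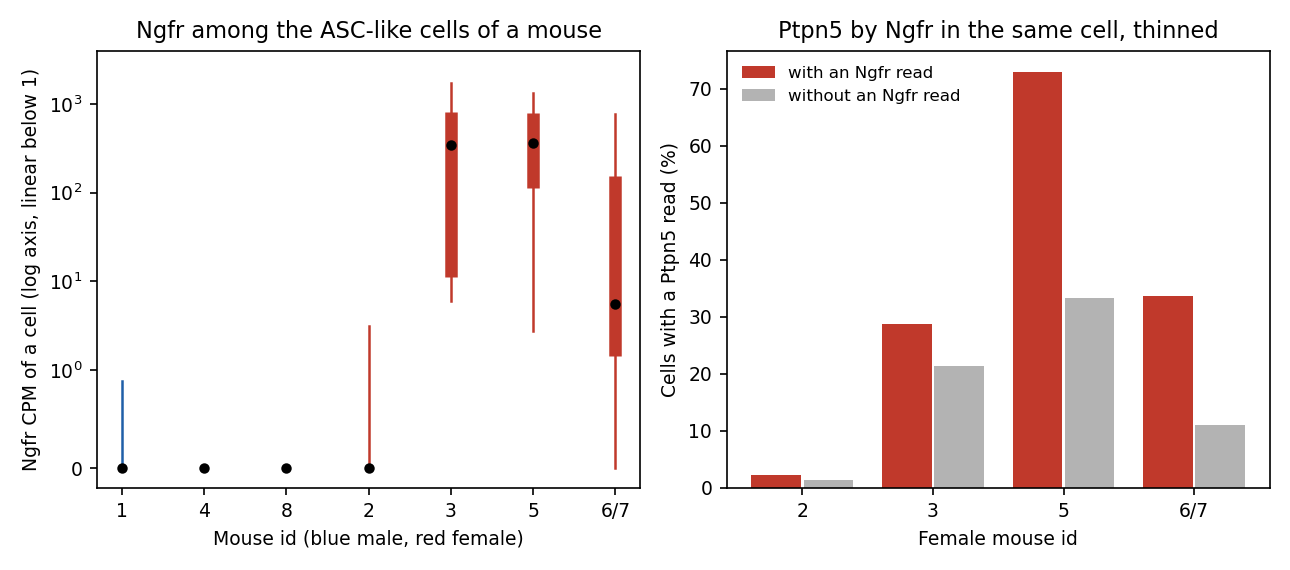
Left, Ngfr in CPM of a cell (log axis, linear below 1) among the ASC-like cells of each mouse id, with the median as a black point, the quartiles as a thick bar and the 10th to 90th percentile as a thin line. Right, the share of ASC-like cells (%) of each female id with a Ptpn5 read after thinning, for cells with and without an Ngfr read. The medians of mice 3 and 5 are near 345 and 361 CPM and those of the males and mouse 2 are 0. In mouse 5 the Ptpn5 share is 73.0% of 89 cells with and 33.3% of 15 cells without an Ngfr read.

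Ptpn5 (ENSMUSG00000030854, chromosome 7, 47077795 to 47133684, minus strand) followed the same order among animals. The females had 0.918 (mouse 2), 41.1 (mouse 3), 127 (mouse 5) and 27.2 scaled CPM (mouse 6/7). The males had 0.0453 (mouse 1) and 0.0367 scaled CPM (mouse 8), from 6 and 3 reads, and 0 of 246723174 reads in mouse 4, which allows up to 0.0102 scaled CPM (3 counts). The groups did not overlap, as in the 8.37% of all genes tested with all females above all males. Ptpn5 was a picked gene, so this is a description. The other females had 29.6 to 138 times the level of mouse 2. Ptpn5 reads were present after thinning in 67.3% of ASC-like cells of mouse 5, 28.1% of mouse 3, 24.3% of mouse 6/7, 1.47% of mouse 2 and at most 0.621% of males.

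In mouse 6/7 a Ptpn5 read was found in a larger share of the cells with an Ngfr read than of those without, as a description of cells that share plates. This id pools 2 animals, so a difference between its animals and one between the cells of an animal cannot be told apart. In mouse 5 a Ptpn5 read was present in 73.0% of 89 cells with an Ngfr read and 33.3% of 15 without. In mouse 6/7 the shares were 33.7% of 166 and 11.02% of 118 cells, in mouse 3 28.7% of 317 and 21.4% of 28, and in mouse 2 2.25% of 89 and 1.37% of 658. Few cells lacked an Ngfr read in mice 5 and 3, and few had a Ptpn5 read in mouse 2, so no order is read in these mice. Over the 21 sums of a mouse and an ASC subtype, Ptpn5 was the gene most like Ngfr among 11815 genes (Pearson r of log2(scaled CPM + 1) 0.952), followed by Chst11 (0.904), Pgr (0.892), Akr1c14 (0.888) and Siah3 (0.888). For Ptpn5 genes among the most alike were Pgr (0.953), Ngfr (0.952), Chst11 (0.942) and Siah3 (0.933). Pgr encodes the progesterone receptor, Akr1c14 a hydroxysteroid dehydrogenase and Chst11 a chondroitin sulfotransferase. The 21 sums come from 7 mouse ids and share their libraries. Ngfr and Ptpn5 were both picked as variable genes of these data, so their likeness is a description and no p is given. Pgr stood at 0.651 to 18.3 scaled CPM in females and at most 0.0151 in males, with no overlap. It was chosen as alike to 2 genes that were higher in females, over sums of both sexes. Its separation by sex thus follows from that choice and is no further result. Among all genes tested, 8.37% had all females above all males.

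Sorcs2, a sortilin family protein that partners with the p75 receptor, was called higher in males by the quasi-likelihood test of edgeR over all genes, at 16.3 ± 4.76 against 1.42 ± 0.849 scaled CPM (log2 difference 3.52, SE 0.562, adjusted p = 0.0132), with 11.9, 21.4 and 15.5 in mice 1, 4 and 8 and 1.21, 2.33, 1.79 and 0.350 in mice 2, 3, 5 and 6/7. Every male exceeded every female, in the direction opposite to Ngfr, and the call held under all 17 alternatives (3.02 to 3.88). Among all genes tested, 7.89% had all males above all females. Sort1, another sortilin, overlapped at 0.676 to 12.0 scaled CPM in males and 3.06 to 4.37 in females. By edgeR it was not called (log2 difference 0.75, SE 0.696, adjusted p = 0.584). The sexes overlapped in Sorl1 and Sorcs3 too, which were not tested. The female sums alone would not have passed the filter on low counts, so Sorcs2 entered the main sex fit through the males. The alternatives include the lower filter used for the other comparisons and a fit with almost no filter, and Sorcs2 kept its call in both. Pcsk6, a protease of the family that cleaves neurotrophin precursors, was called higher in males at 84.8 ± 49.0 against 24.1 ± 8.26 scaled CPM (1.82, SE 0.408, adjusted p = 0.0483). Mouse 1 stood at 141 and mice 4 and 8 at 53.2 and 60.0, and the Pcsk6 call was lost in 11 of 17 alternatives, among them each of the 6 fits that left out mouse 1, 4, 8, 2, 5 or 6/7 (adjusted p 0.0563 to 0.172). Sorcs2 and Pcsk6 were the 2 called among 40 tested of the 60 pathway genes with a row, which were listed with earlier results of these data known, against 2.25% called of all 11815 genes tested, 1.57% higher and 0.686% lower in males. On the neurotrophin side 2 of 22 were called, and on the Ret side 0 of 12 and on the Ptpn5 side 0 of 6 by edgeR, with 3 and 0 genes at an unadjusted p under 0.05.

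Ntrk2 (ENSMUSG00000055254, chromosome 13, 58806569 to 59133970, plus strand), the receptor for Bdnf and Ntf5, was the member read in the most ASC-like cells, 73.4% after thinning. The males had 93.5, 83.2 and 87.5 scaled CPM (mice 1, 4 and 8) and the females 122, 181, 185 and 119 (mice 2, 3, 5 and 6/7). Every female exceeded every male, with means of 88.1 ± 5.18 and 152 ± 36.2, but the log2 difference of −0.79 (SE 0.27) was not called (adjusted p = 0.171). Groups that do not overlap were found for 16.3% of all genes tested, 8.37% with all females higher. Ntf5 stood at 0.0102 to 0.0453 scaled CPM in males and 0.179 to 0.347 in females, from 2 to 6 reads in each male. Bdnf, the other ligand of Ntrk2, was not analysed here.

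Ntf3 (ENSMUSG00000049107, chromosome 6, 126101412 to 126166910, minus strand), the ligand of Ntrk3, had 8.52, 4.08 and 5.07 scaled CPM in males and 18.3, 18.3, 11.2 and 27.8 in females. The groups did not overlap, and the log2 difference of −1.68 (SE 0.385, adjusted p = 0.0514) was not called. It was called in 5 of 17 alternatives, among them without mouse 1 (−2.06, adjusted p = 0.0345). Ntrk3 (ENSMUSG00000059146, chromosome 7, 78175959 to 78738012, minus strand) had 38.1 scaled CPM in mouse 1, 7.46 in mouse 4 and 6.01 in mouse 8, against 4.03, 6.38, 2.21 and 3.65 in the females. Mouse 1 alone set the male mean of 17.2 ± 18.1, the groups overlapped, and the log2 difference of 2.08 (SE 0.626, adjusted p = 0.124) was not called and was 0.72 (adjusted p = 0.385) without mouse 1. Annotated genes overlap Ntrk2, Ntrk3 and Gfra1 (2, 2 and 1 gene rows), and reads could not be assigned to a strand.

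**Figure D2:**
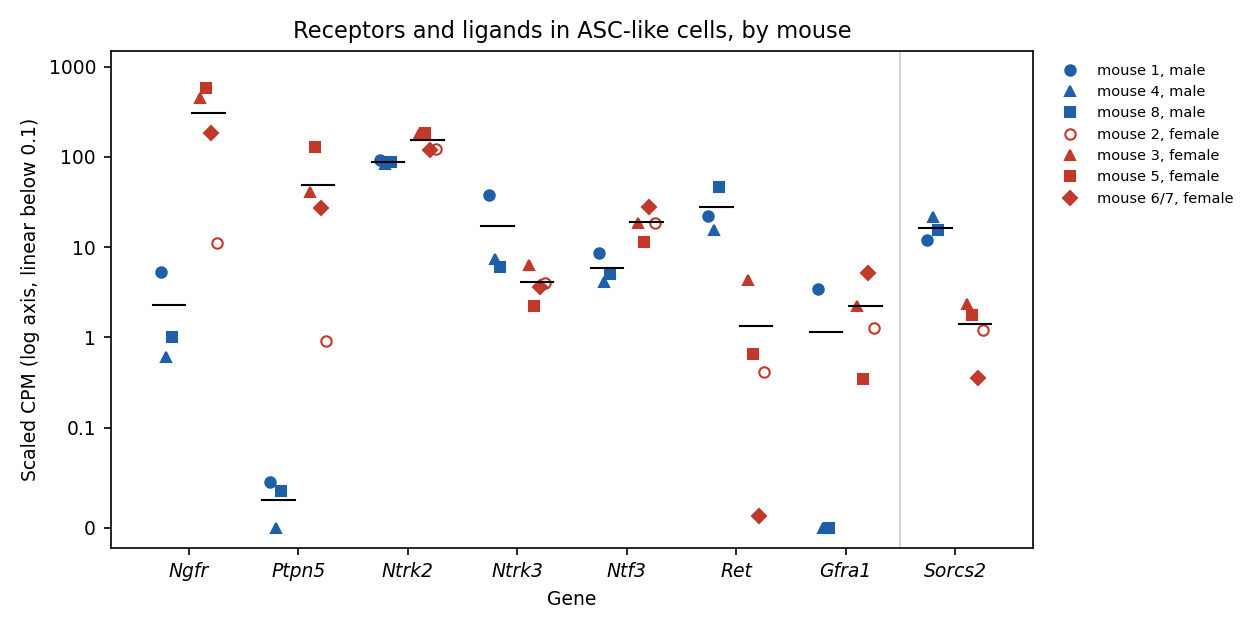
Scaled CPM (log axis, linear below 0.1) of 7 members and of Sorcs2 in the summed ASC-like cells of each mouse id, males in blue and females in red with mouse 2 as open circles, and group means as lines. Males and females separate in opposite directions for Ngfr (means 2.29 and 304) and Sorcs2 (16.3 and 1.42), and mouse 2 is the lowest female for Ngfr and Ptpn5 but not for Ntf3.

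Ret (ENSMUSG00000030110, chromosome 6, 118151745 to 118197718, minus strand) was higher in male than in female ASC-like cells, as the choice of this gene implied. The males had 21.8, 15.6 and 46.7 scaled CPM in mice 1, 4 and 8. The females had 0.414 in mouse 2, 4.30 in mouse 3, 0.656 in mouse 5 and 0.0114 in mouse 6/7, the last from 3 reads. The groups did not overlap, with means of 28.0 ± 16.5 and 1.35 ± 1.99 scaled CPM. Among all genes tested, 7.89% had all males above all females. Ret reads were present after thinning in 17.6% (13.1 to 23.0%), 17.6% (13.9 to 21.9%) and 19.9% (14.01 to 26.9%) of ASC-like cells of mice 1, 4 and 8. The 3 males thus had a like share of Ret cells, and the levels of cells with reads were wide, up to 543, 535 and 586 CPM. In females the share was 1.47%, 2.90% and 0.962% in mice 2, 3 and 5 and 0 of 284 cells in mouse 6/7, which allows up to 1.06%. In mouse 3, 1 cell held 39.5% of the Ret reads.

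The genes most like Ret over the 21 sums were Ehd2 (r = 0.898), Ticam1 (0.891), Taok2 (0.885), Tns1 (0.884) and Atp2b4 (0.883), none of them a neurotrophin or Gdnf family gene. Sorcs2 had r = 0.743 with Ret. The sums span both sexes, and Ret and Sorcs2 were both higher in males, so this r does not separate likeness from the sex difference. Within male cells after thinning, a Sorcs2 read was present in 17.3% of 139 cells with a Ret read and 19.7% of 629 without.

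Co-receptors and ligands of Ret were sparse in the same cells. Gfra1 (ENSMUSG00000025089, chromosome 19, 58235604 to 58455909, minus strand), the co-receptor for Gdnf, had 3.46 scaled CPM in mouse 1 and 0 reads in mice 4 and 8, which allows up to 0.0102 and 0.0366, against 1.28, 2.23, 0.343 and 5.11 in the females. The log2 difference of −0.96 (SE 1.71, adjusted p = 0.790) was not called. Gfra1 passed the filter on low counts through female sums alone, so no conclusion on a sex difference is drawn from this fit. The 6 Sox10 cells held 23.1% of the Gfra1 reads of mouse 1. After thinning 0 of 139 male and 0 of 22 female cells with a Ret read also had a Gfra1 read, while 0.636% of 629 male and 2.54% of 1458 female cells without a Ret read had one. Gfra2, the co-receptor for Nrtn, was read in 9.35% of male cells with a Ret read (13 of 139) and 6.68% of those without, and Gfra4 in 8.63% (12 of 139) and 8.43%. No order is read from these shares, since so few cells shift with the random draw of reads in thinning.

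Gfra4 stood at 4.42 to 6.21 scaled CPM in males and 5.28 to 9.68 in females, and Gfra2 at 1.34 to 5.91 and 0.518 to 4.63. Gfra3, the co-receptor for Artn, came almost wholly from the Sox10 cells, which held 99.9% of its reads in mouse 1, and had 1 read in ASC-like cells of all other animals. Among the ligands, Gdnf had 0 reads in mice 1, 8 and 5 and at most 0.726 scaled CPM elsewhere, Nrtn at most 2.25, Artn 0.904 to 3.61 in males and 0.179 to 0.543 in females, and Pspn at most 0.0611. Gfral, the receptor that links Gdf15 to Ret, was not analysed here.

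The ASC-like cells were scored as ASC1a, ASC1b and ASC2 from markers that hold no member, within each mouse, and the subtypes are ranges of a score with 488 cells (21.7%) near a boundary. Scores were scaled within a mouse, so every mouse was given cells of all 3 subtypes whatever its mix. In the study's own clusters, mouse 1 had no cell in the male ASC1a cluster and gave nearly all cells of the male ASC2 cluster. In males a label here may therefore differ from the study's subtype. The sums of the subtypes were compared within mice by edgeR with the mouse as a block (n = 7). Ntf3 fell from ASC1a to ASC2 in 7 of 7 mice, at 23.5 ± 13.1 against 6.35 ± 7.46 scaled CPM (log2 difference −2.50, SE 0.499, adjusted p = 0.00630). In ASC1a it ran from 7.24 in mouse 4 to 45.9 in mouse 6/7 with a median of 22.1, and in ASC2 from 0.496 in mouse 8 to 21.9 in mouse 6/7 with a median of 3.84. ASC1b stood at 8.66 ± 11.01, and its difference from ASC1a (−2.03, adjusted p = 0.124) was not called by edgeR. It was called in 3 of 17 alternatives, namely with DESeq2 (adjusted p = 0.00109), with the likelihood ratio test (adjusted p = 0.00701) and without mouse 3 (−2.54, adjusted p = 0.0210), whose ASC1b level was 32.8. The call between ASC2 and ASC1a was lost with females only (−1.86, adjusted p = 0.193) and without the block (−1.89, adjusted p = 0.297).

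Ntrk3, the receptor of Ntf3, ran opposite to its ligand and was higher in ASC2 than in ASC1a in 6 of 7 mice, at 13.5 ± 12.1 against 5.70 ± 9.20 scaled CPM (2.17, SE 0.395, adjusted p = 0.00314). Against ASC1b it was higher in 5 of 7 mice (1.49, SE 0.385, adjusted p = 0.0435), a call lost without mouse 2, 3, 4, 5 or 6/7 (adjusted p 0.0797 to 0.155). Without the block neither was called (1.24, adjusted p = 0.762, and 0.50, adjusted p = 0.976). In the 4 females Ntrk3 had 0.415 to 2.78 scaled CPM in ASC1a and 4.60 to 13.4 in ASC2. In the 3 males the ranges overlapped, at 2.54 to 26.2 and 5.73 to 39.6.

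Ntrk2 was lower in ASC2 than in ASC1a in 6 of 7 mice and than in ASC1b in 7 of 7, at 83.8 ± 23.4 against 140 ± 58.0 and 154 ± 64.6 scaled CPM. The log2 differences of −0.66 (adjusted p = 0.0220) and −0.81 (adjusted p = 0.00658) passed the p limit but not the fold limit of 2.6, so they were not called. Ngfr had 14.2 to 850.3 scaled CPM in ASC1a of females, 11.6 to 467 in ASC1b and 6.25 to 414 in ASC2, and mouse 2 was the lowest female in each. Its differences between ASC2 and ASC1a (−1.36, adjusted p = 0.454) and ASC2 and ASC1b (−1.28, adjusted p = 0.534) were not called, nor were those of Ptpn5, Ret and Gfra1 (adjusted p at least 0.368). Ret had 18.2, 35.5 and 80.5 scaled CPM in ASC1a of mice 1, 4 and 8, 20.7, 3.02 and 18.9 in ASC1b and 23.4, 12.4 and 33.1 in ASC2. Of the 7 members, Ntf3 and Ntrk3 were called between ASC2 and ASC1a, Ntrk3 between ASC2 and ASC1b and 0 between ASC1b and ASC1a, against 2.07%, 1.55% and 0.121% of 22359 genes. Of all genes, 1.18% were higher and 0.89% lower in ASC2 than in ASC1a, 0.729% higher and 0.823% lower in ASC2 than in ASC1b, and 0.103% higher and 0.0179% lower in ASC1b than in ASC1a.

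Of the pathway genes, 5 of 58 tested were called between ASC2 and ASC1a and 3 of 58 between ASC2 and ASC1b. Spry4 and Spry1, feedback inhibitors of receptor tyrosine kinase signals, were lower in ASC2 than in ASC1a in 7 of 7 mice, at 4.51 ± 4.52 against 23.6 ± 12.8 (−2.72, adjusted p = 6.22e-05) and 19.9 ± 10.9 against 84.7 ± 49.6 scaled CPM (−2.05, adjusted p = 9.01e-05), and both were lower than in ASC1b too (−1.76, adjusted p = 0.00341, and −1.54, adjusted p = 0.00179), although both calls against ASC1b were lost without the block (adjusted p = 0.271 and 0.134). Ptk2b, a kinase that STEP acts on, was higher in ASC2 than in ASC1a in 7 of 7 mice, at 26.0 ± 14.7 against 3.69 ± 2.62 (2.93, adjusted p = 0.00353). Pcsk6 was higher in ASC2 than in ASC1a (1.51, adjusted p = 0.0110) and ASC1b (2.10, adjusted p = 0.00114) in 7 of 7 mice. Mouse 1 had 322 scaled CPM of Pcsk6 in ASC2 against 18.4 to 110 in the others. The Pcsk6 call against ASC1a was lost with females only (1.005, adjusted p = 0.0655), without the block (adjusted p = 0.0718) and without mouse 1, where 1.11 missed the fold limit. Gdf15, a ligand that signals through Ret, was lower in ASC2 in 6 of 7 mice, at 0.321 ± 0.505 against 2.78 ± 1.79 (−5.31, adjusted p = 0.0206), a call lost in 6 of 16 alternatives. Between ASC1b and ASC1a edgeR called 0 of 58, with 12 at an unadjusted p under 0.05.

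**Figure D3:**
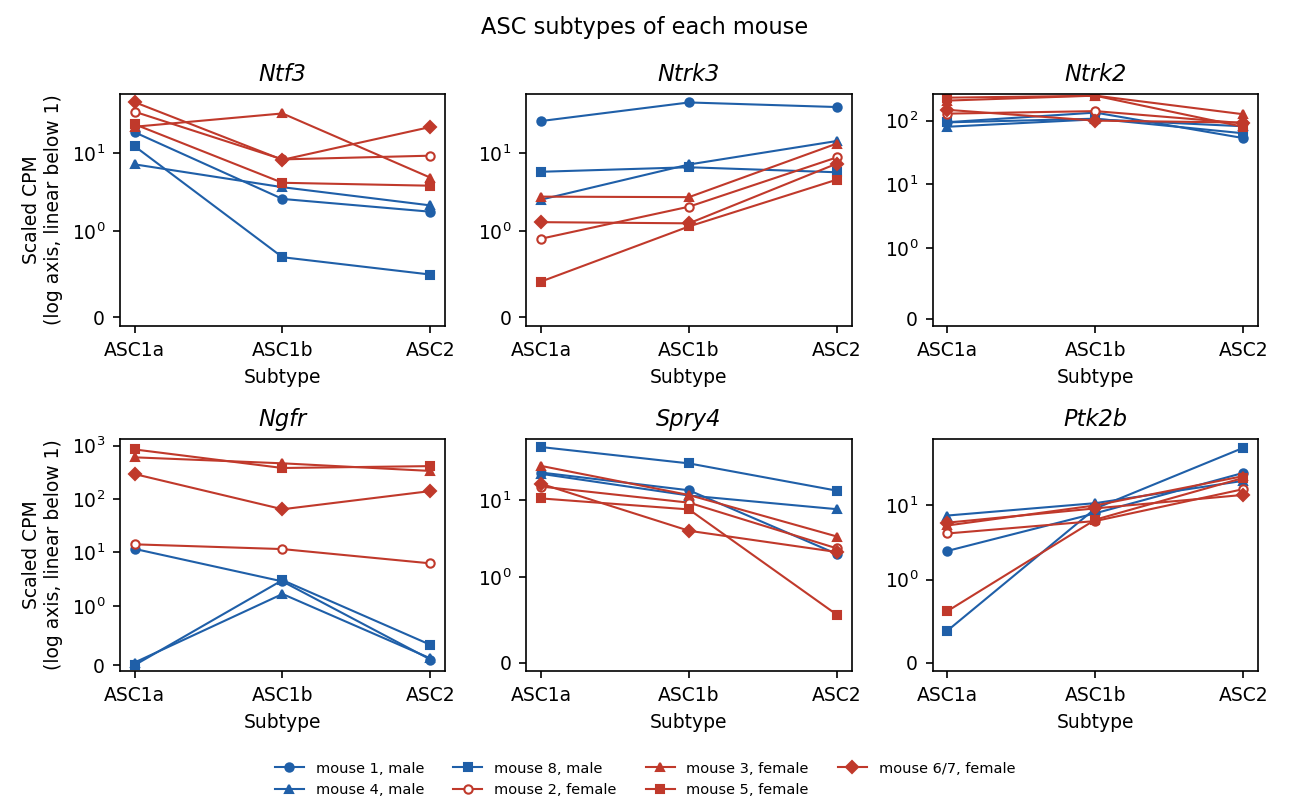
Scaled CPM (log axis, linear below 1) of Ntf3, Ntrk3, Ntrk2, Ngfr, Spry4 and Ptk2b in the 3 ASC subtypes, with a line for each mouse id, males in blue and females in red. Ntf3 and Spry4 are lower in ASC2 than in ASC1a in all 7 mice, and Ptk2b is higher in all 7 and Ntrk3 in 6. For Ngfr every female lies above every male within each subtype, though lines of mice of the same sex cross.

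For mouse 2 the sort gives a second view of the subtypes, with 1 plate per sort and no replicate. Plate 875 (DPP4-negative, 368 ASC-like cells) had higher levels than plate 709 (DPP4-positive, 379 ASC-like cells) of Ngfr, Ntf3 and Ntrk2. They stood at 18.3 against 9.84, 32.2 against 14.9 and 194 against 119 CPM. Ntrk3 was lower on the DPP4-negative plate, at 2.02 against 8.04 CPM. After thinning, Ngfr reads were present in 14.1% (95% exact binomial interval 10.7 to 18.1%) of cells of plate 875 and 9.76% (6.97 to 13.2%) of plate 709. These intervals overlap. For Ntf3 the shares were 32.6% (27.8 to 37.7%) and 21.4% (17.4 to 25.8%). Intervals cover counting error of cells only, not differences between plates. Ptpn5 had 2.33 against 0.0622 CPM, from 674 and 19 reads. Dpp4 is among the markers that score ASC2, so these directions are not independent of the subtypes.

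ASC-like and EC-like sums of the same mouse were compared in the 5 ids with at least 10 cells of both (mice 1, 8, 2, 5 and 6/7), where 16.4% of 22757 genes were called, 5.78% higher and 10.6% lower in EC-like cells. The receptors Ngfr, Ntrk2 and Ntrk3 were lower in EC-like cells. Ngfr stood at 0 to 0.480 scaled CPM in EC-like and 1.02 to 568 in ASC-like cells and was lower in EC-like cells in 5 of 5 mice. Since Ngfr was a picked gene, no test of it is read. Ntrk2 had 7.29 ± 3.87 against 119 ± 39.0 by edgeR (log2 difference −4.24, SE 0.484, adjusted p = 0.000822). Ntrk3 had 0.836 ± 0.193 against 10.2 ± 14.2 (−2.70, SE 0.746, adjusted p = 0.0416), a call lost without each of the 5 mice in turn (adjusted p up to 0.0927). Gfra1 had 3 reads in EC-like cells of mouse 1 and 0 in the other 4, and 3.22, 0, 1.26, 0.339 and 4.94 scaled CPM in ASC-like cells of mice 1, 8, 2, 5 and 6/7. It passed the filter on low counts through the ASC-like sums alone, so no fold or p is read.

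Ntf3 was not called. Ntf3 had 5.31, 16.2, 9.46, 3.44 and 15.7 scaled CPM in EC-like cells of mice 1, 8, 2, 5 and 6/7, against 7.92, 5.11, 18.1, 11.1 and 26.9 in ASC-like cells. The ranges overlapped, EC-like cells were higher in mouse 8 alone, and the log2 difference of −0.52 (SE 0.542, adjusted p = 0.588) was smaller than its error. Ntf3 reads were present after thinning in 5.09 to 17.2% of EC-like cells of these mice, and in 0 of 137 macrophage-like cells, which had 0 Ntf3 reads in all. Ptpn5, without a test, was lower in EC-like cells in 4 of 5 mice, and in mouse 1, 1 EC-like cell held 96.8% of its 93 reads. Ret had 11 reads in 560 EC-like cells, 0 to 0.170 scaled CPM, against 0.0111 to 47.0 in ASC-like cells.

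Of the pathway genes 20 of 58 were called between EC-like and ASC-like cells, 5 higher and 15 lower in EC-like cells, with a median log2 difference of −1.13 against −0.30 over all genes tested. The count and median take in genes that passed the filter on low counts through the ASC-like sums alone, so they are no support for a difference. Gfra4 and Sorcs2 had 2 reads each in the EC-like cells and Dlg4 at most 0.0412 scaled CPM, so their fitted folds are not read. The proprotein convertases Pcsk5 and Pcsk6 stood at 0.0755 ± 0.0342 against 85.2 ± 22.9 and at 0.877 ± 1.61 against 50.8 ± 48.4 scaled CPM in EC-like and ASC-like cells. Gas1 had 6.98 ± 11.6 against 253 ± 81.6 scaled CPM. Plcg1 and Mapk3, which act below these receptors and many others, were among the 5 higher in EC-like cells.

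Mural and rare classes came mainly from mouse 1 and are given without a test. Ntrk2 reads were present after thinning in 55.0% of 60 pericyte-like and 53.7% of 41 VSMC-like cells, against 13.0% of EC-like and 15.3% of macrophage-like cells. VSMC-like cells also had Ntrk3 (31.7%, 30.7 CPM), Ntf3 (29.3%, 22.5 CPM) and the sortilin Sort1 (78.0%, 89.0 CPM), and Artn at 19.4 CPM in 5 of 41 cells. Pericyte-like cells of mouse 2 had Ngfr at 94.6 CPM from 4 of 13 cells, and those of mouse 1 at 12.6 CPM, of which 1 cell held 84.4%. The 19 epithelial-like cells, all of mouse 1, had Ret at 27.0 CPM from 4 cells, Gfra1 at 32.4 CPM from 2 cells and Sorcs2 at 97.0 CPM from 14 cells. Macrophage-like cells had Gfra2 at 33.7 CPM from 64 of 137 cells. Ngfr was read in 1 of 177, 0 of 29, 15 of 170, 11 of 46 and 9 of 138 EC-like cells of mice 1, 8, 2, 5 and 6/7 (0.170, 0, 0.101, 0.526 and 0.178 CPM), and in 0 of 76 and 24 of 61 macrophage-like cells of mice 1 and 5. Whether these reads came from ASC on the same plates was not tested.

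**Figure D4:**
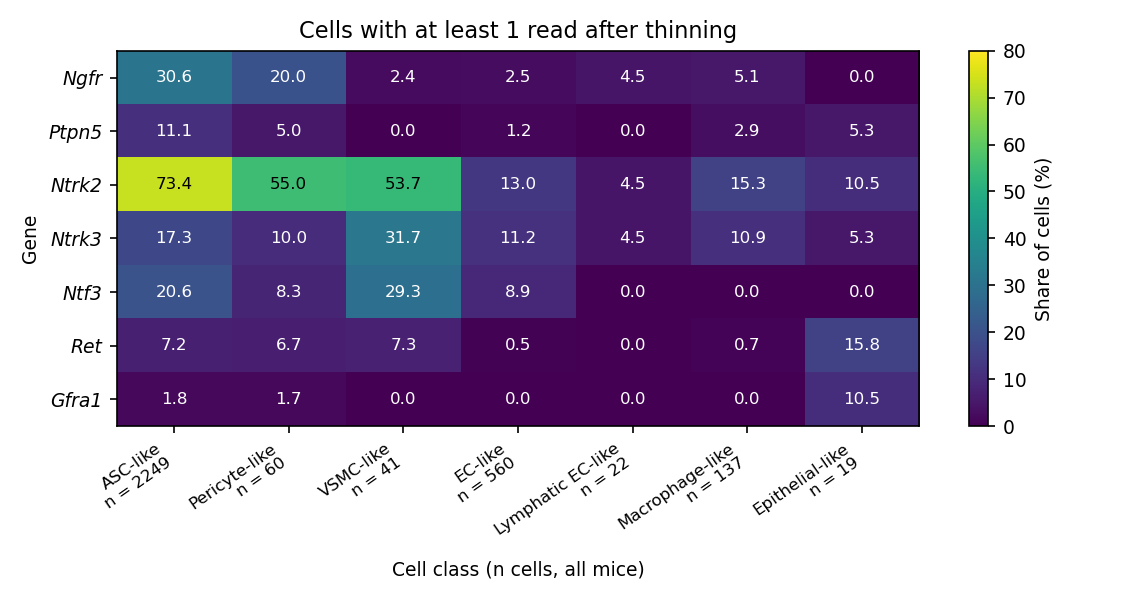
Share of cells (%) with at least 1 read after thinning to 150000 reads, for 7 members (rows) in 7 cell classes (columns, n cells over all mice). Ntrk2 is read in 73.4% of ASC-like cells and over 50% of both mural classes, and Ntf3 in 8.9% of EC-like and 0 of the macrophage-like cells.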

How the data were processed

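Per the labels and the study's methods, the authors ran bcl2fastq, STAR and Salmon on mm10 and deposited 1 table of read counts per gene and cell, with versions not given in the sources used here. The values are whole-number counts without molecular identifiers, and the spike-in rows (1.98% of reads) were left out of totals. The members and all lists were chosen with earlier results of these data known.

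Cells were clustered with Seurat 5.3.0 (scale 500000, 3000 variable genes, 14 components, resolution 1.1), and clusters were named from 3 or more markers found in 25% of cells. A limit of 2 adipocyte genes among the 10 leading genes, and of 3 times the median mitochondrial share, was chosen after the clusters were seen and left such clusters unnamed. No doublet caller was run, and 31 mixed ASC-like cells were left out in an alternative. Counts were summed per mouse id and class or subtype (10 cells or more) and tested with edgeR 4.0.16 in R 4.3.3 (quasi-likelihood, TMM factors, two-sided, Benjamini-Hochberg over all genes tested). Genes needed over 600 counts in 2 sums for sex and 10 counts in 2 sums otherwise, and a call needed an adjusted p under 0.05 and a fold above 2.6. Fits within animals held the mouse as a block, since its sums come from the same animal (correlation of deviations 0.345 to 0.726 between subtypes and 0.061 to 0.324 between classes). Tested on simulated data with 200 genes changed 8-fold, the sex fit recovered 95.5% of them over 11815 genes, the subtype fit 59.5% over 22359 and the class fit 30.5% over 22757. Summed ASC-like libraries held 68122285 to 594421842 reads. Some genes of the lists are not reported here and enter no count of the lists. The named genes were the members, the pathway genes called, the 6 with the largest change between classes and the 5 genes most like each picked member. Alternatives were DESeq2 1.42.0, a likelihood ratio test, other scalings, filters, cell classes and sets of mice.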

Additional observations from a re-analysis of the deposited data

Results flagged for a closer look

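In 7 of 36 groups of mouse ids, 1 value lay farther from its neighbour than Dixon's limit allows. For independent groups of normal values chance alone gives about 1 in 20. These groups share genes, mice and sums, so the count is not read as an excess. Ret in female ASC-like cells stood out in mouse 3 at 4.30 scaled CPM. The other 6 were differences of log2(scaled CPM + 1) between subtypes of a mouse. From ASC1a to ASC2, mouse 1 stood out for Ngfr (−3.53) and for Pcsk6 (4.04). For Ptpn5, mouse 2 stood out between ASC2 and ASC1b (−1.48) and between ASC1b and ASC1a (0.84). Between ASC1b and ASC1a, mouse 6/7 stood out for Ntrk2 (−0.56) and mouse 1 for Gfra1 (−3.30).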

How the results depend on the processing

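A plate held cells of 1 mouse id, so plate and animal effects cannot be told apart, and 3 males against 4 female ids set the precision of every sex difference. The 266 genes called by sex became 591 with DESeq2, 550 with the likelihood ratio test, 171 with a filter of 10 counts, 170 with no filter and 92 (without mouse 6/7) to 343 (without mouse 3) when a mouse was left out, with 146, 147, 135 and 114 without mice 2, 4, 5 and 8. With library totals in place of TMM factors the median of all genes moved to −0.60, and 87 of 310 calls were higher in males against 185 of 266, while Sorcs2 kept its call. Between ASC2 and ASC1a the 463 calls became 895 (DESeq2), 797 (likelihood ratio test), 260 (females only) and 317 to 409 with a mouse left out. Between ASC2 and ASC1b the 347 became 817, 716, 220 and 231 to 318, and between ASC1b and ASC1a the 27 became 235, 189, 12 and 14 to 24, and 42 with the filter of 600 counts. Between EC-like and ASC-like cells the 3735 became 5775 (DESeq2), 5733 (likelihood ratio test) and 2597 to 3287 with a mouse left out. The causes were not tested.

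Without the replicate block, calls fell to 205, 106 and 0 in the 3 subtype contrasts in the order above. Besides the losses given in the report for Ntf3 and Ntrk3, those of Pcsk6 (adjusted p = 0.0718) and Gdf15 (0.243) between ASC2 and ASC1a and of Spry1 (0.134) and Spry4 (0.271) between ASC2 and ASC1b were lost, and leaving out the block changed no other call of a named gene. Ptpn5 changed sign without the block between ASC2 and ASC1b (0.062) and between ASC1b and ASC1a (−0.18).

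Other changes of sign were in uncalled differences. Between ASC1b and ASC1a, Ngfr gave 0.31 with DESeq2, 0.29 with the likelihood ratio test and −0.66 to 0.39 with a mouse left out, Ptpn5 −0.20 to 0.49 with a mouse left out, Ntrk2 −0.0255 with females only, and Gfra1 0.36 with females only and −1.62 to 0.36 with a mouse left out. Ntf3 between ASC2 and ASC1b ran from −0.84 to 0.0164 with a mouse left out.

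Mean shares of cells with a read depended on depth. Without thinning they were 1.23% for Ptpn5, 78.1% for Ntrk2, 43.2% for Ntrk3, 16.8% for Ntf3 and 31.9% for Ret in males, and 91.4% for Ntrk2, 28.9% for Ntrk3, 33.5% for Ntf3, 2.56% for Ret and 4.86% for Gfra1 in females. With 10 or more reads asked for, they were 0% for Ptpn5, 42.9% for Ntrk2, 10.1% for Ntrk3, 7.23% for Ntf3 and 11.8% for Ret in males, and 66.4% for Ntrk2 and 5.14% for Ntrk3 in females.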
